A study of Mus musculus with 8 samples.

Results

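The matrix metalloproteinases and the tissue inhibitors that hold them in check were followed in the diaphragm of dy/dy mice and of normal mice. The genes listed were Mmp2, Mmp3, Mmp9, Mmp13, Mmp14, Mmp15, Timp1, Timp2, Timp3 and Timp4, and a probe set counted as theirs where the platform annotation gave it that 1 gene symbol. This found 9 genes, 5 proteases and 4 inhibitors, of 12393 genes named in this way. They had 21 probe sets of the 22626 that are not controls. Mmp15 had no such probe set and is not analysed here.

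The dystrophic animals were dy/dy mice at 8 weeks of age, a strain whose muscular dystrophy comes from a lack of laminin α2, the main laminin of the basement membrane around muscle fibres. The normal animals were their control mice, also at 8 weeks. No source used here gives the exact genotype of these controls, or the sex and background strain of either group. Each group had 4 Affymetrix arrays, and each array held diaphragm RNA pooled from 3 mice, so 12 mice stand behind each group and the spread between single mice is not seen. No agent was given to either group according to the labels. In whole muscle, fewer cells of a type and less RNA per cell cannot be told apart.

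Metalloproteinases are zinc enzymes that cut collagens and other proteins of the extracellular matrix. They are made as inactive precursors, and most are secreted, while MMP14 sits in the cell membrane. TIMPs bind the active site and block it. MMP14, TIMP2 and the precursor of MMP2 form a complex on the cell surface in which MMP2 is activated, so that TIMP2 takes part in activation as well as inhibition. In muscle these enzymes are known for remodelling the basement membrane during repair and for letting muscle precursor cells and leukocytes move through the matrix.

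Values are MAS5 signals, rescaled so that every array had the same trimmed mean. Each log2 difference sets dystrophic over normal pools on the scale of log2(signal + 16). The dimmest 40% of probe sets, below a signal of about 122, were not tested. The threshold was a limma adjusted p of 0.05 over all 13575 tested probe sets. The median signal per array lay between 172 and 207. Lama2, the gene of laminin α2, had a signal of 232 to 333 in dystrophic pools and 749 to 982 in normal pools, so every pool lay on the side its label gives. Skeletal muscle fibre markers, such as Ckm and Acta1, gave a summed signal of 188342 to 214983 in dystrophic pools and 187286 to 293350 in normal pools. Both groups thus carried skeletal muscle. Liver markers stood apart in dystrophic replicate 3, at a summed signal of 65866, against 2332 to 7752 in the other dystrophic pools and 1715 to 4495 in normal pools. The ratio of the Gapdh control's 3′ to its 5′ signal, a sign of RNA quality, was 0.775 to 0.804 in dystrophic pools. In normal pools it was 0.729 to 0.937. The same ratio of the actin control was 0.866 to 0.948 in dystrophic and 0.833 to 1.07 in normal pools. Both ratios were highest in normal replicate 4.

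Of the 17 tested member probe sets, 2 passed the threshold, both higher in dystrophic diaphragm, and 15 did not pass. Over all tested probe sets 0.494% passed, 0.457% higher and 0.0368% lower. At an unadjusted limma p under 0.05, 7 members were higher (5.6% of all tested probe sets) and 1 was lower (4.13% of all). The risers were 1 probe set of Timp1 and 1 of the 2 of Mmp2. Groups did not overlap for 4 of the 17 (6.4% of all), 3 with every dystrophic pool above every normal pool (3.87% of all tested probe sets) and 1 with every dystrophic pool below (2.53% of all). The 3 above were those of Timp1, Mmp2 and Mmp14, and the 1 below was that of Mmp9.

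**Figure D1:**
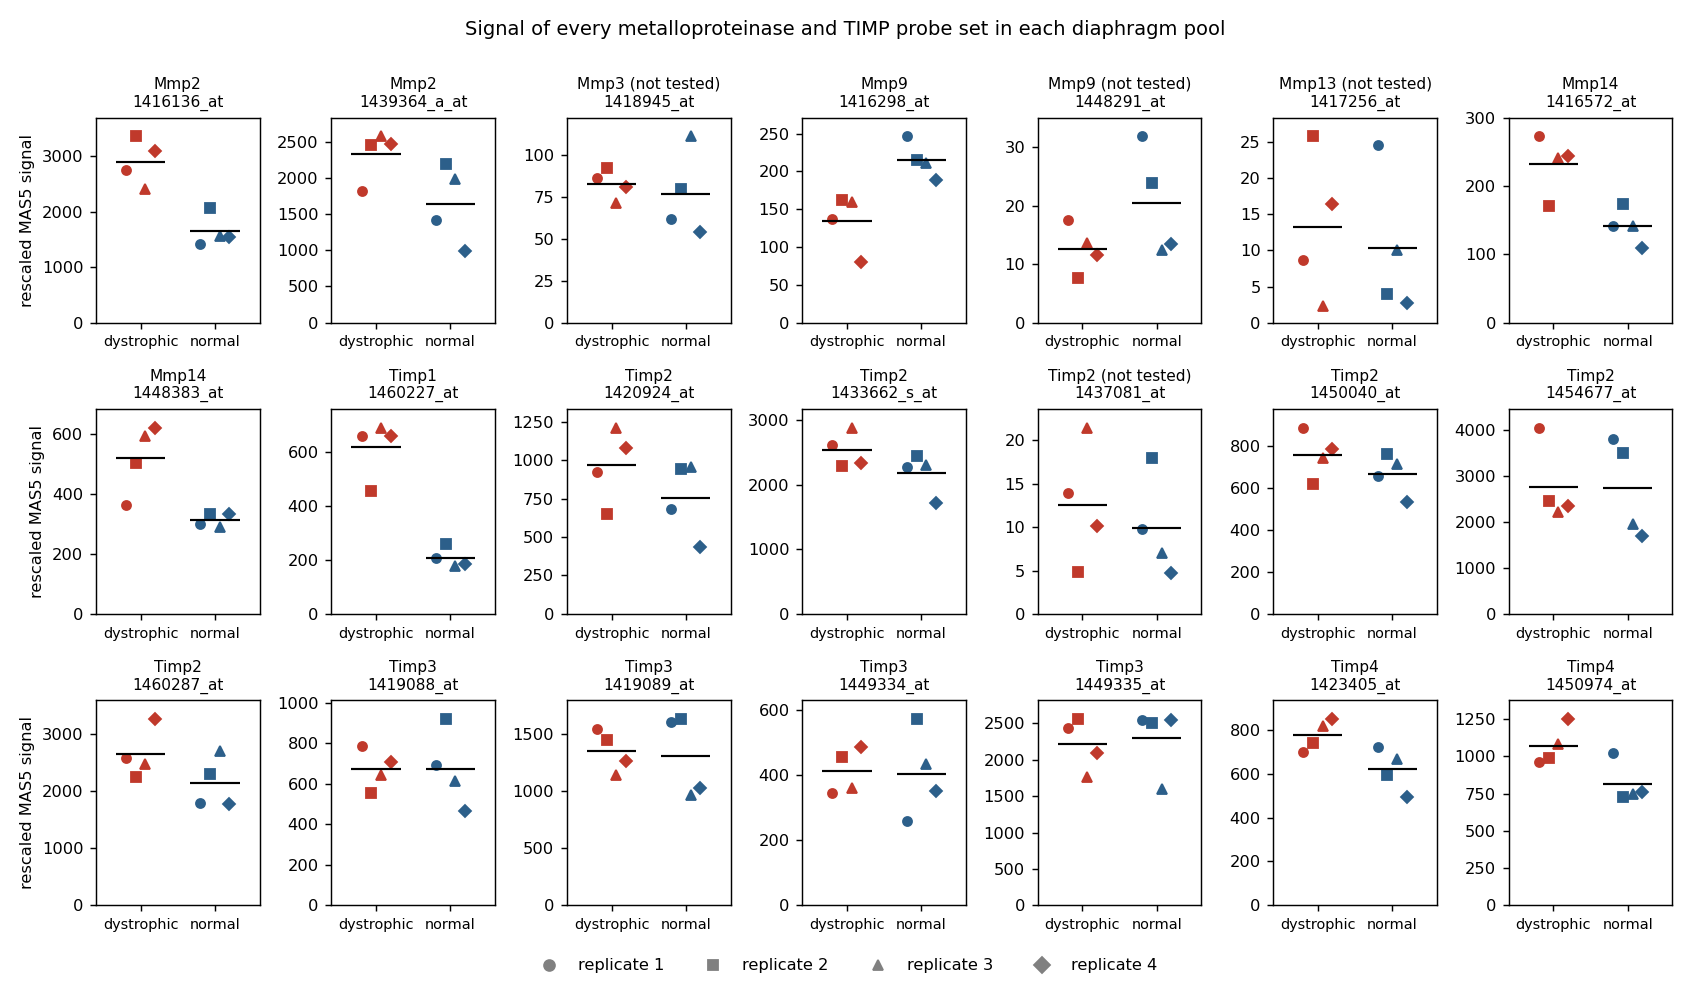
Rescaled MAS5 signal (linear axes from 0) of all 21 probe sets in the 4 dystrophic pools (left, red) and the 4 normal pools (right, blue), with the marker shape giving the replicate and the black line the group mean. Dystrophic pools lie above all normal pools for Timp1, the first Mmp2 panel and Mmp14 1448383_at, and below them for the first Mmp9 panel.

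Among the proteases, Mmp2 encodes gelatinase A, which cuts basement membrane collagen IV and denatured collagen and is made mostly by fibroblasts and other mesenchymal cells. Its probe set 1416136_at had signals of 2741, 3355, 2406 and 3082 in dystrophic replicates 1 to 4, against 1410, 2066, 1558 and 1545 in normal replicates 1 to 4. The lowest dystrophic pool, replicate 3, lay above the highest normal pool, replicate 2, and the groups did not overlap. The means were 2896 ± 412 in dystrophic and 1645 ± 289 in normal pools (SD, n = 4 each). The log2 difference was 0.81 (SE 0.15, limma adjusted p = 0.0454), or 1.76-fold.

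A second Mmp2 probe set, 1439364_a_at, had 1822, 2456, 2583 and 2480 in dystrophic pools and 1416, 2204, 1987 and 987 in normal pools. Dystrophic replicate 1 fell inside the normal range, so the groups overlapped. Its log2 difference was 0.55 with a 95% interval of 0.05 to 1.06, and it did not pass (limma adjusted p = 0.466). The mean of both probe sets was at 0.68 and did not pass either (limma adjusted p = 0.111). The Mmp2 call held in 1 of the 8 fits that left out an array, that without normal replicate 2, and the other 7 gave limma adjusted p of 0.0662 to 0.174, with log2 differences between 0.74 and 0.90.

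Mmp14 encodes the membrane-anchored enzyme MT1-MMP, a collagenase and the activator of the MMP2 precursor. Probe set 1448383_at had 361, 502, 593 and 620 in dystrophic pools and 299, 333, 290 and 332 in normal pools. Every dystrophic pool was above every normal pool, dystrophic replicate 1 by the least. The log2 difference was 0.67 (SE 0.17) with a 95% interval of 0.29 to 1.05, and it did not pass (limma adjusted p = 0.147). Without dystrophic replicate 1 it was 0.83 and passed (limma adjusted p = 0.0425), and the first Mmp2 probe set did not pass in that fit (limma adjusted p = 0.0808).

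The other Mmp14 probe set, 1416572_at, had 273, 170, 241 and 245 in dystrophic pools and 142, 174, 141 and 109 in normal pools. Dystrophic replicate 2 lay just under normal replicate 2, and the other 3 dystrophic pools were above all normal pools. The log2 difference was 0.65 (SE 0.20, limma adjusted p = 0.242). Both probe sets of Mmp14 thus lay on the same side, and their mean, at 0.66, had a limma adjusted p of 0.0516 over 7436 genes.

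Mmp9 encodes gelatinase B, an enzyme stored in neutrophil granules and also made by macrophages. Its brighter probe set, 1416298_at, ran the other way, with 137, 162, 160 and 80.4 in dystrophic pools and 246, 215, 211 and 188 in normal pools. All 4 dystrophic pools were below all 4 normal pools, dystrophic replicate 4 by the most. The means were 135 ± 37.8 in dystrophic and 215 ± 24.0 in normal pools (SD, n = 4 each). The log2 difference was -0.65 (SE 0.22) with a 95% interval of -1.13 to -0.18, and it did not pass (limma adjusted p = 0.305). It was -0.45 without dystrophic replicate 4 and between -0.75 and -0.59 without any other array.

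The second Mmp9 probe set, 1448291_at, was too dim to be tested. It had 7.70 to 17.5 in dystrophic pools and 12.5 to 31.9 in normal pools, inside the range of the TrpnX negative controls, which was 0.78 to 32.2 over the arrays. The summed signal of 9 neutrophil markers on the array, among them Ngp, Mpo and S100a9, was 768 to 1530 in dystrophic pools and 880 to 1511 in normal pools. Of these, 5 had a positive log2 difference and 3 were bright enough to be tested. The tested ones, the granule protein genes Ngp, Ltf and Mpo, were at 0.15, 0.16 and 0.18 (limma adjusted p = 0.858, 0.876 and 0.859). Of the dim ones, Cxcr2, S100a9, S100a8 and Elane lay below 0, at -0.73, -0.63, -0.28 and -0.22. Camp and Mmp8, also dim, lay above 0, at 0.27 and 0.04. No neutrophil marker was listed at 0, while the chemokine receptor gene Cxcr2 had 15.3 to 34.8 in dystrophic pools and 32.8 to 61.8 in normal pools. Most of its dystrophic values lay inside the range of the negative controls, which reached 32.2. The part of neutrophils in the Mmp9 signal was not tested.

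Mmp3 encodes stromelysin 1, which cuts proteoglycans and laminin and activates other metalloproteinases, and Mmp13 encodes the main interstitial collagenase of mice. Neither was bright enough to be tested. Mmp3 had 86.4, 92.0, 71.4 and 80.9 in dystrophic pools and 61.6, 79.4, 111 and 54.1 in normal pools. These values were above the negative controls, the normal pools spread around the dystrophic ones, and the log2 difference was 0.13. Mmp13 had 2.24 to 25.8 in dystrophic pools and 2.68 to 24.6 in normal pools, inside the range of the negative controls in every pool. The arrays therefore give no measurement of a change in Mmp13.

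Of the inhibitors, Timp1 had the largest difference of all 17 tested member probe sets. It encodes a secreted inhibitor with wide reach over the soluble metalloproteinases, which also binds the precursor of MMP9, and it is known as a gene that injury and inflammation induce. Probe set 1460227_at, the only one of the gene, had signals of 663, 458, 692 and 661 in dystrophic replicates 1 to 4, against 208, 261, 177 and 186 in normal replicates 1 to 4. The groups did not overlap, and dystrophic replicate 2, the lowest of its group, was still above normal replicate 2, the highest of its group.

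Timp1 averaged 618 ± 108 in dystrophic and 208 ± 37.6 in normal pools (SD, n = 4 each). The log2 difference was 1.50 (SE 0.18, limma adjusted p = 0.00407), the 40th largest rise of the 13575 tested probe sets. It passed in all 8 fits that left out an array, with log2 differences of 1.43 to 1.63 and limma adjusted p up to 0.0259. Without dystrophic replicate 3, the pool with the highest sum of liver markers, the difference was 1.44. The liver sums of dystrophic replicates 1 and 4, at 7752 and 5638, also lay above every normal pool, the highest being 4495. Dystrophic replicate 2, the lowest for Timp1, had the lowest liver sum of its group, at 2332. The part of liver transcripts in the Timp1 signal was not tested. The poly-A spike-in controls divided the arrays into 3 sets with both groups in each: replicates 2 and 4 at 125 to 172, replicate 3 at 307 to 354, and replicate 1 at 543 to 588. Within these sets Timp1 differed by 1.26, 1.88 and 1.60, and Mmp2 (1416136_at) by 0.84, 0.62 and 0.95. In the set of 2 against 2 pools neither passed (limma adjusted p = 0.233 for Timp1 and 0.312 for Mmp2).

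**Figure D2:**
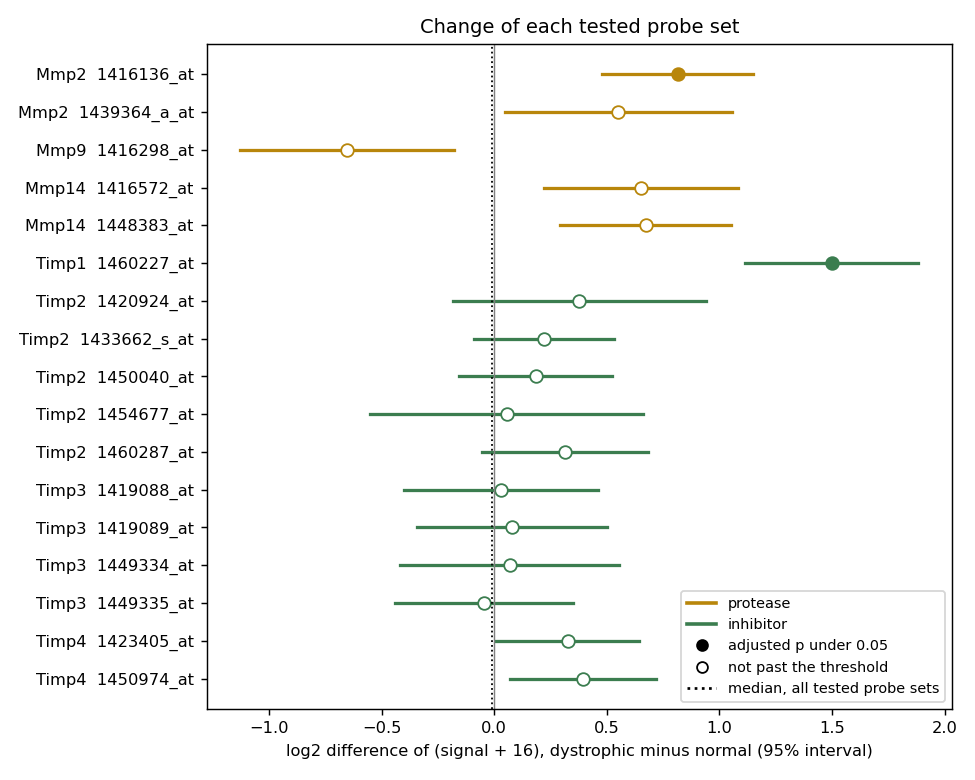
Log2 difference of each of the 17 tested probe sets (dystrophic minus normal, x axis) with its 95% interval, proteases above inhibitors. Filled points passed the threshold: Timp1 at 1.50 and Mmp2 at 0.81. The dotted line is the median of all tested probe sets, at -0.01.

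Timp2 encodes the inhibitor that also escorts the MMP2 precursor to MMP14. It had 6 probe sets, of which 5 were tested, and none passed. Their log2 differences ran from 0.06 to 0.38, all above 0, with limma adjusted p of 0.590 to 0.973. Probe set 1460287_at had 2582, 2250, 2477 and 3256 in dystrophic pools and 1790, 2291, 2693 and 1764 in normal pools, a log2 difference of 0.31 with a 95% interval of -0.05 to 0.68. Its groups overlapped, with dystrophic replicate 2 below 2 of the normal pools.

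The brightest, 1454677_at, had 4057, 2464, 2211 and 2345 in dystrophic pools and 3805, 3515, 1961 and 1689 in normal pools. Replicate 1 was high in both groups, and the log2 difference was 0.06 (95% interval -0.55 to 0.66). The other tested ones, 1420924_at, 1433662_s_at and 1450040_at, were at 0.38, 0.22 and 0.18, with overlapping groups. The suffix of 1433662_s_at marks probes that match more than 1 transcript, so its signal may hold other genes. The untested one, 1437081_at, lay within the negative controls, at 4.88 to 21.5 in dystrophic and 4.75 to 17.9 in normal pools.

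Timp3 encodes an inhibitor that stays bound to the matrix and also blocks several ADAM and ADAMTS enzymes. Its 4 tested probe sets had log2 differences between -0.04 and 0.08, with limma adjusted p of 0.942 to 0.982. The widest 95% interval among them was -0.42 to 0.55. Probe sets 1419088_at and 1449334_at, the dimmer of the 4, had 552 to 785 and 345 to 486 in dystrophic pools, against 466 to 919 and 258 to 571 in normal pools. Probe set 1449335_at had 2443, 2560, 1761 and 2094 in dystrophic pools and 2554, 2512, 1597 and 2540 in normal pools. Replicate 3 was the lowest pool of both groups. For 1419089_at replicates 1 and 2 were high in both groups, at 1543 and 1453 in dystrophic and 1606 and 1632 in normal pools. Replicates 3 and 4 were low in both, at 1142 and 1269 in dystrophic and 967 and 1029 in normal pools.

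Timp4 encodes the inhibitor known for its high level in heart and skeletal muscle. Both probe sets were tested and neither passed. Probe set 1450974_at had 964, 992, 1080 and 1251 in dystrophic pools and 1023, 730, 749 and 759 in normal pools. Normal replicate 1 alone reached into the dystrophic range. The log2 difference was 0.39 with a 95% interval of 0.07 to 0.72 (limma adjusted p = 0.397). Probe set 1423405_at had 700 to 849 in dystrophic and 495 to 723 in normal pools, a log2 difference of 0.33 (limma adjusted p = 0.500). Within the spike-in sets these were 0.57, 0.52 and -0.08 for the first and 0.53, 0.29 and -0.05 for the second, so both were below 0 in the set of replicate 1.

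Set side by side, the 5 tested protease probe sets had a median log2 difference of 0.65, with 1 called and 4 above 0. The 12 tested inhibitor probe sets had a median of 0.20, with 1 called and 11 above 0. Over all tested probe sets the median was -0.01 and 47.7% were above 0. These probe sets stand for 3 protease and 4 inhibitor genes, and several measure the same transcript, so they are not independent of each other.

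Changes were then compared between genes that act together, with the log2 difference between their brightest probe sets taken within each pool. The level of that difference depends on the probes and has no meaning of its own. Its shift between the groups was tested by an exact two-sided permutation test, with adjustment over the 6 pairs. The smallest p that 4 against 4 pools allow is 0.0286.

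Mmp9 minus Timp1 was -2.15, -1.41, -2.01 and -2.81 in dystrophic pools and 0.23, -0.26, 0.23 and 0.01 in normal pools. The groups were far apart, with a shift of -2.15 (exact permutation p = 0.0286, adjusted p = 0.0429). All dystrophic pools already lay above all normal pools for Timp1 and below them for Mmp9. The separation of this pair was therefore fixed by those values and adds no support to either gene. Mmp9 alone, at -0.65, did not pass (limma adjusted p = 0.305). Timp1 also shifted against the other inhibitors, by 1.44 against Timp2, 1.54 against Timp3 and 1.10 against Timp4. Each had no overlap between the groups and the same exact permutation p of 0.0286 (adjusted p = 0.0429). These 4 pairs share the Timp1 values, whose own difference was 1.50, and were chosen with that rise known, so they are not independent of it or of each other. All 4 sit at the smallest possible p, and the adjusted value passes because they sit there together.

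Mmp2 minus Timp2, the enzyme and its partner inhibitor, was -0.56, 0.44, 0.12 and 0.39 in dystrophic pools and -1.42, -0.76, -0.33 and -0.13 in normal pools. The shift of 0.76 did not pass (exact permutation p = 0.0857, adjusted p = 0.103), and dystrophic replicate 1 lay below 2 of the normal pools. Within the spike-in sets it was 0.86 for replicates 2 and 4, 0.45 for replicate 3 and 0.86 for replicate 1, above 0 in each. With the mean of each gene's probe sets in place of the brightest, the shift of Mmp2 minus Timp2 was 0.47, and it did not pass either. Mmp2 minus Mmp14, the enzyme and its activator, averaged 2.46 ± 0.40 in dystrophic and 2.32 ± 0.19 in normal pools (SD, n = 4 each). That shift was 0.14 (exact permutation p = 0.543, adjusted p = 0.543), smaller than the spread within either group, and within the same sets it was 0.12, -0.37 and 0.69. The other 4 pairs kept their sign in all 3 sets, Mmp9 minus Timp1 at -2.38 to -1.99 and Timp1 minus Timp4 at 0.69 to 1.68.

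**Figure D3:**
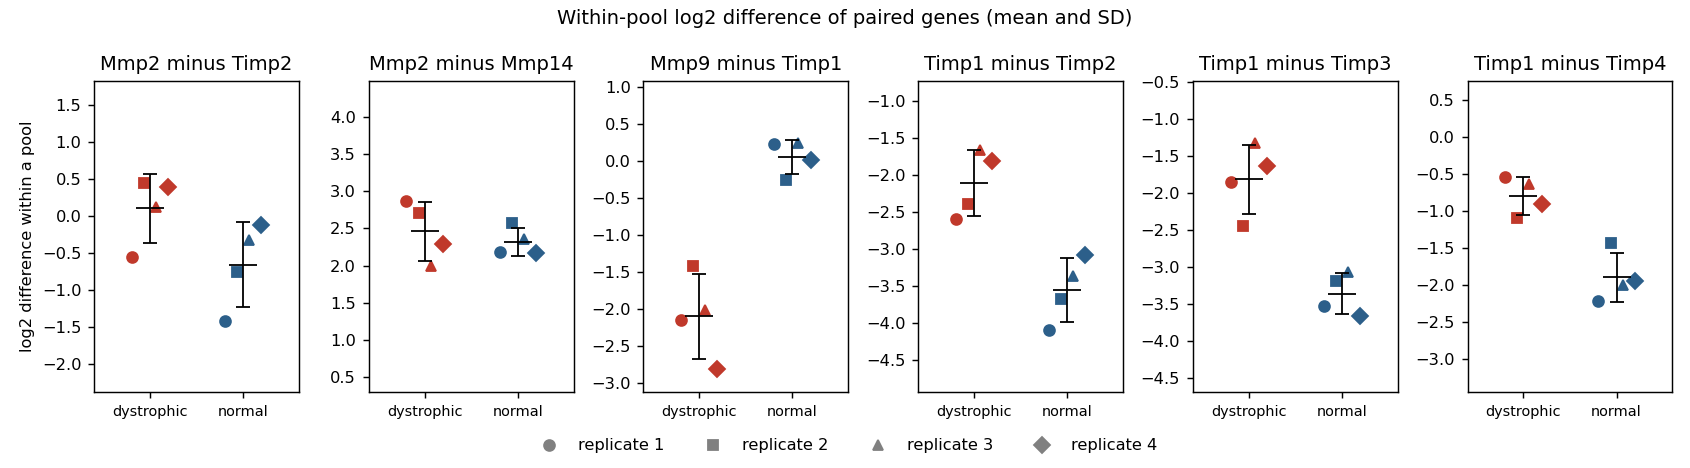
Log2 difference between 2 genes within each pool (y axis, each panel spanning the same range) for 6 pairs, dystrophic pools left and normal pools right, with mean and SD. The groups separate for Mmp9 minus Timp1 and for Timp1 against each other TIMP, and overlap for Mmp2 minus Timp2 and Mmp2 minus Mmp14.

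Promoter sequence was looked up for the 9 genes in RefSeq (GRCm38.p6), in windows from 250 bases before to 50 after the annotated start. A window was found for 7 of them, Mmp3, Mmp13, Mmp14 and the 4 TIMPs. The AP-1 site, the DNA element of Fos and Jun proteins by which metalloproteinase genes are classically induced, was searched on both strands as TGANTCA and, in a variant form, as TGAGTAA. The TATA box was searched as TATAAA and the GC box as GGGCGG. The windows below are shown because Timp1, the strongest riser, and the dim genes Mmp3 and Mmp13 were the members with an AP-1 match. Capitals mark the AP-1 match and, in Mmp3 and Mmp13, also the TATA match.
Timp1, chrX:20870180-20870209, plus strand: gcggtgggtggaTGAGTAAtgcgtccagga
Mmp3, chr9:7445768-7445821, plus strand: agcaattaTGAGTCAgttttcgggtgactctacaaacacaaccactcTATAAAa
Mmp13, chr9:7272471-7272513, plus strand: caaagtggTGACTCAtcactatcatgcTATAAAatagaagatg

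The AP-1 match in Timp1 began at base 27 counted from the annotated start, and those in Mmp3 and Mmp13 began 46 and 35 bases before it. The TATA matches of Mmp3 and Mmp13 began 7 and 16 bases before it. The annotated starts were not checked against other data. TGANTCA was present in 7.81% and TGAGTAA in 2.68% of all 32851 promoter windows, and TATAAA in 13.6%. Mmp14, Timp2, Timp3 and Timp4 held none of these 3 in their windows. GGGCGG was present in Mmp14, Timp1, Timp2 and Timp3, and in 35.7% of all windows. The motifs do not overlap each other in the windows printed. A match is a stretch of letters and no evidence of binding. Fos itself, the AP-1 subunit, had 736, 3976, 4558 and 1928 in dystrophic pools and 1679, 2056, 3997 and 1732 in normal pools, with a log2 difference of 0.03 (SE 0.49). It spread widely within both groups, as an early-response gene can.

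Further genes of the same system were taken from lists of general knowledge, each gene by its brightest tested probe set, where 0.645% of 8214 genes passed and the median difference was -0.01. Of 17 other metalloproteinases, 13 were on the array and 2 were bright enough to be tested. Neither passed in limma, and the unadjusted p was under 0.05 for 1. Mmp23, a membrane-linked metalloproteinase, had 333, 345, 262 and 355 in dystrophic pools and 583, 551, 467 and 376 in normal pools. All dystrophic pools were below all normal pools, and the log2 difference of -0.58 (SE 0.17) did not pass (limma adjusted p = 0.222). Mmp24 was at 0.03. Of 12 tested ADAM and ADAMTS proteases, limma called 0 and 2 had an unadjusted p under 0.05, both higher, where 5.6% of all tested probe sets were higher and 4.13% lower at that level. The brightest, Adam9 and Adam15, were at -0.0048 and 0.025.

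Activators of metalloproteinase precursors include the plasminogen system, furin-like convertases, cathepsins and mast cell proteases. Limma called 0 of 11 tested, and the median was 0.23. At an unadjusted limma p under 0.05, 2 were higher (5.6% of all tested probe sets) and 1 was lower (4.13% of all). The brightest were the cathepsin Ctsl, at 0.29 (SE 0.13), and the convertase Pcsk6, at -0.47 (SE 0.17), and neither passed. The largest difference of the list, singled out after its values were seen, was that of Ctsk, cathepsin K, a collagen-cutting protease. It had 297, 370, 425 and 286 in dystrophic pools and 116, 167, 224 and 107 in normal pools, which did not overlap, and its log2 difference of 1.12 (SE 0.23) did not pass (limma adjusted p = 0.0645). A further list held 23 genes of cytokines and transcription factors that are known to induce metalloproteinases or TIMPs. Of these, 20 were on the array and 14 were bright enough to be tested. The cytokine genes Il6, Tnf and Osm were not among the tested, so the list is silent on them. Of the 14, limma called 0 and 0 had an unadjusted p under 0.05, with a median of 0.04. The brightest of the 14 were Fos and Ets2, an ETS factor, which was at -0.05 (SE 0.21).

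In the list of other inhibitors and regulators all 11 tested genes lay above 0, where 48.5% of all genes did, with a median of 0.36. Of these, 4 had an unadjusted limma p under 0.05, all higher, where 5.6% of all tested probe sets were higher at that level. Lrp1, the endocytic receptor that clears metalloproteinases and their complexes with TIMPs from the cell surface, was the 1 that passed. It had 1493, 1660, 1557 and 1564 in dystrophic pools and 980, 1134, 889 and 818 in normal pools. These groups did not overlap, and the log2 difference was 0.72 (SE 0.13, limma adjusted p = 0.0361). Lcn2, lipocalin 2, which binds MMP9, had a larger difference of 0.98 (SE 0.20), also without overlap, that did not pass (limma adjusted p = 0.0743), and it was likewise singled out after its values were seen. Of 19 matrix substrates, 1 rose, 1 fell and 17 did not pass, with 13 above 0 and a median of 0.22. At an unadjusted limma p under 0.05, 7 of the 19 were higher and 1 was lower. Over all tested probe sets these shares were 5.6% and 4.13%. The 1 that rose past the threshold was Col1a2, a chain of type I collagen, at 0.88 (SE 0.14, limma adjusted p = 0.0167). The 1 that fell past it was Lama2, at -1.60 (SE 0.15, limma adjusted p = 8.91e-04).

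The genes whose pattern over the 8 pools was closest to that of Timp1 or Mmp2 were found by the root mean square distance of log2 values centred on each gene, among 8207 other genes. The closest to Timp1 was Dclk1, a kinase that binds microtubules, at a distance of 0.18, where the median gene was at 0.82. It had 207, 175, 237 and 243 in dystrophic pools and 77.9, 95.3, 81.7 and 72.9 in normal pools, so that replicate 2 was the lowest dystrophic and the highest normal pool, as for Timp1. Next came Ctss, the lysosomal protease cathepsin S, at 0.22 and one of the macrophage markers used further on, then the desmosome protein gene Dsp at 0.26 and the matrix gene Thbs4, thrombospondin 4, at 0.26.

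The closest to Mmp2 was Mgp, the matrix Gla protein that restrains calcification, at a distance of 0.13, where the median gene was at 0.51. Mgp had 6219, 7265, 5510 and 7510 in dystrophic pools and 3458, 4058, 3422 and 2923 in normal pools. Cd74, the invariant chain of MHC class II, Lrp1 and the matrix protein gene Olfml3 followed, each at 0.16. All 8 genes were chosen for this likeness, and their own differences add no support to those of Timp1 or Mmp2.

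**Figure D4:**
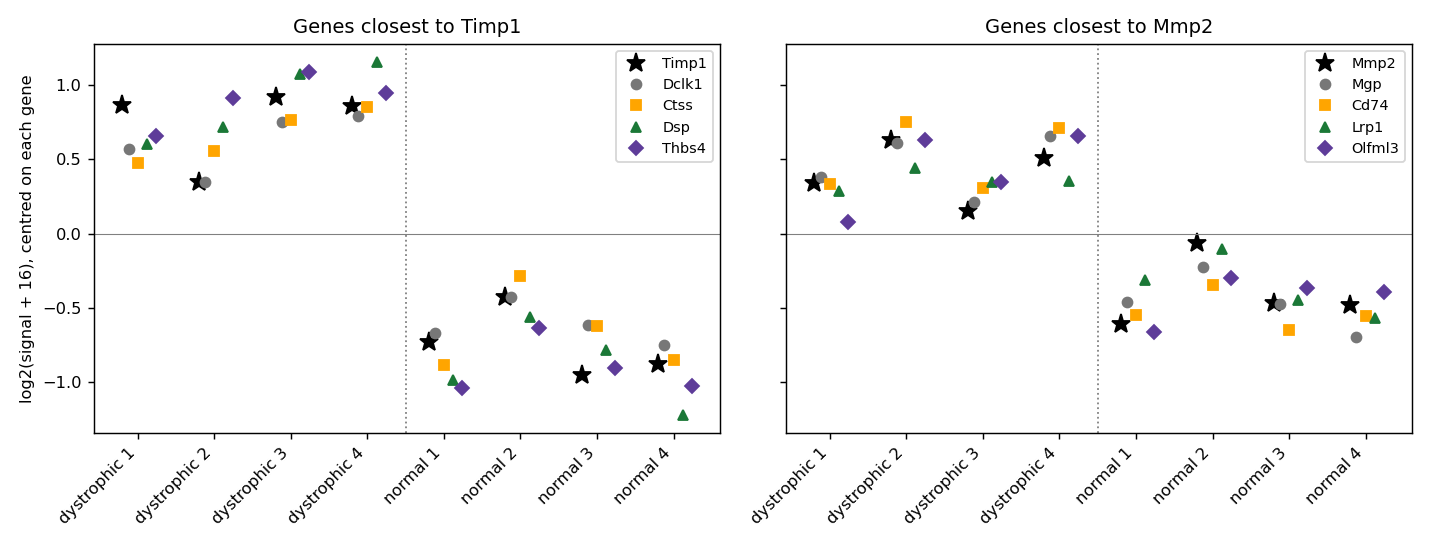
Log2(signal + 16) centred on each gene's mean (y axis) in the 4 dystrophic and the 4 normal pools, for Timp1 and Mmp2 (stars) and the 4 genes closest to each. In dystrophic replicate 2 Timp1 and Dclk1 sit lower than in the other dystrophic pools, while Mmp2 and Mgp sit higher than in dystrophic replicates 1 and 3.

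Markers of macrophages and fibroblasts were set beside these genes. Of 15 macrophage markers, 14 had a positive log2 difference (48.5% of all tested genes did), and 3 of the 13 tested passed (0.645% of all). Cd68, Ctss and Mpeg1 rose, while Cd14 was at 0.08 and Cd163 at -0.35. The summed signal of the 15 was 12866 to 15402 in dystrophic and 7702 to 10352 in normal pools. Of 11 fibroblast markers, all tested, 10 were positive and 3 passed, Lum, Mfap5 and S100a4, while Thy1 was at -0.27. Their sum was 36761 to 47647 in dystrophic and 27322 to 32896 in normal pools. No marker of either list was at 0, the lowest value being 32.9 for Fcer1g in normal replicate 4. The part of these cell types in the rise of Timp1 and Mmp2 was not tested. The sums of other lists overlapped between the groups. Mast cell markers summed to 1509 to 1911 in dystrophic and 1355 to 1930 in normal pools, and endothelial markers to 4723 to 6370 in dystrophic and 5983 to 6316 in normal pools. Adipocyte markers summed to 13282 to 21262 in dystrophic and 18299 to 24339 in normal pools, and red blood cell markers to 515 to 762 in dystrophic and 380 to 1271 in normal pools.

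**Figure D5:**
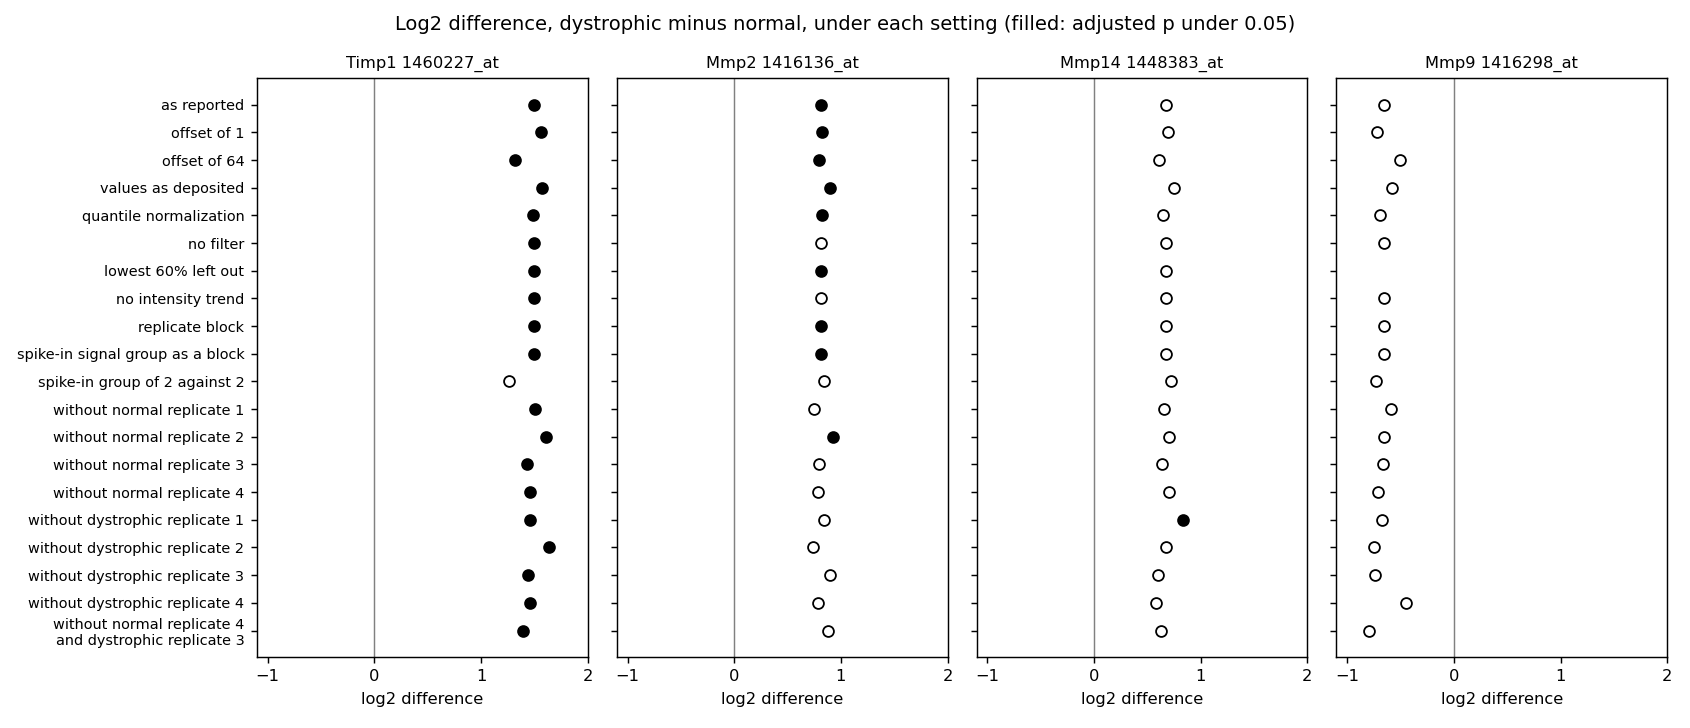
Log2 difference (dystrophic minus normal, x axis) of the brightest probe set of Timp1, Mmp2, Mmp14 and Mmp9 under each processing setting and with arrays left out (rows). Filled points have an adjusted p under 0.05. Timp1 stays between 1.26 and 1.63 and is filled in 18 of 19 alternatives, Mmp2 between 0.74 and 0.93 and filled in 8 of 19, Mmp14 is filled in 1 of 19, and Mmp9 lies below 0 in all 18 that tested it. The other Mmp2 probe set, 1439364_a_at, is not drawn, lay at 0.28 to 0.74 and passed in 0 of 19. The other of Mmp14, 1416572_at, is not drawn and passed in 0 of 18.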

How the data were processed

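RNA of 8 diaphragm pools was measured on Affymetrix arrays. The authors deposited signal intensity values on a linear scale, which per the submitters' processing notes come from MAS5. Its version is not given in the sources used here. As deposited, 7 arrays had a 2% trimmed mean of 500.2 and normal replicate 4 one of 400.2, so every array was rescaled to 487.7, the mean over arrays. Signals were analysed as log2(signal + 16), without the 64 controls and the lowest 40% of probe sets, and fitted with limma 3.58.1 in R 4.3.3 (eBayes with an intensity trend, Benjamini-Hochberg adjustment). With 4 arrays in each group, it is their number that sets the precision. Of the probe sets, 20380 had 1 gene symbol, 691 several and 1555 none. Of those with 1 symbol, 20351 were matched to a RefSeq table (GRCm38.p6), whose symbol was then used. The 13575 tested probe sets entered the fit and the adjustment whether they had 1, several or no symbols. Only those with 1 symbol are named.

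The members, lists and pairs were chosen with earlier results of these data known. Each other list was represented by up to 4 called genes, or by its 2 brightest. For Timp1 and Mmp2 the 4 closest genes are named. Replicate numbers were checked as pairs. The correlations of same-numbered deviations were 0.48, -0.05, 0.15 and 0.13, so the numbers were not used as pairs. Alternatives were other offsets, scalings, filters and thresholds, no trend, blocks, and arrays left out. Plots used matplotlib 3.10.9 (Python 3.11.15).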

Additional observations from a re-analysis of the deposited data

Results flagged for a closer look

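Among 42 sets of 4 pools (21 probe sets in each group), 4 held a pool far from the other 3 by Dixon's test, and chance alone flags about 1 in 20. Dystrophic replicate 2 was low for Timp1, at 458, with the other dystrophic pools at 661 to 692, and without it the log2 difference was 1.63. Dystrophic replicate 1 was low for the Mmp2 probe set 1439364_a_at, at 1822, with the others at 2456 to 2583. Normal replicate 3 was low for the Timp3 probe set 1449335_at, at 1597, with the others at 2512 to 2554. Normal replicate 1 was high for the Timp4 probe set 1450974_at, at 1023, with the others at 730 to 759.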

How the results depend on the processing

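The count of 2 member probe sets that rose was 1 (Timp1) with no filter, with no intensity trend, with a threshold of 0.01, and without normal replicate 4 and dystrophic replicate 3 together, and 0 within the spike-in set of 2 against 2 pools. It was 1 to 2 with each array left out, and 0 fell in any fit. Timp1 passed in 18 of 19 alternatives, and Mmp2 (1416136_at) in 8 of 19 (limma adjusted p 0.0219 to 0.312). With the replicate number as a block (replicate block) 2 passed, and 105 probe sets in all against 67 in the reported fit. For the pairs a replicate block gave the same shifts, and sign flips of 4 differences allow no p under 0.125, so they cannot pass. All 4 same-numbered differences had 1 sign in 5 of the 6 pairs, and 3 of 4 did for Mmp2 and Mmp14. Of 327 single values under alternatives, 291 kept direction and side of the threshold, 13 were no longer past it, 1 was newly past it (Mmp14) and 22 turned sign. These 22 were of Timp2 1454677_at and of Timp3, where none passed. Timp2 1454677_at was at -0.020 in the set of 2 against 2, at -0.054 without normal replicate 4 and dystrophic replicate 3, and at -0.15 to 0.24 with arrays left out. Under the same 3 changes Timp3 1419088_at was at -0.066, -0.11 and -0.13 to 0.19. Timp3 1449335_at was at 0.036 on values as deposited, 0.12 without both arrays and -0.21 to 0.061 with arrays left out. Timp3 1419089_at was at -0.052 to 0.20 and Timp3 1449334_at at -0.12 to 0.25 with arrays left out, and the mean of the Timp3 probe sets at 0.033. The cause was not tested. The pairs kept their direction in all alternatives, with Mmp2 and Mmp14 at 0.006 to 0.30 and Mmp2 and Timp2 at 0.47 to 0.98. The single spike-in sets are not among these alternatives, and in that of replicate 3 Mmp2 and Mmp14 were at -0.37. Leaving out arrays for the pairs was added after the data had been seen and gives values with no test. Dim probe sets (Mmp3, Mmp13 and the second of Mmp9) give no usable test.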
